A study of Mus musculus with 7 samples.

Results

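Promoter CAC sites without a CTCF motif are places in the mouse liver genome where CTCF and the cohesin subunit Rad21 were both found at the start of a gene, although the CTCF recognition sequence was not. They were taken from the authors' list of CTCF sites as rows of the class "other CAC" (cohesin-and-CTCF sites that were not assigned as anchors of a domain or loop) on chromosomes 1 to 19 that carried no motif entry. The CTCF summit, the base with the most fragments, had to lie within 1000 bp of an annotated start of a protein-coding transcript. The rule found 3189 sites among 26257 other CAC sites of the autosomes (12.1%, 95% Wilson interval 11.8 to 12.6%) and among 52436 sites of the whole class list. All of them overlapped a Rad21 peak, and 313 (9.82%) overlapped more than 1.

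The livers came from male CD-1 mice (Crl:CD1(ICR)) of 8 weeks of age, with no treatment or genetic change named in the labels. CTCF was immunoprecipitated with a Millipore antibody in 4 libraries and Rad21 with an Abcam antibody in 3 libraries, and the reads of each factor were merged before peaks were called. Each site therefore has 1 value for CTCF and 1 for Rad21, with no spread between mice. Whole liver holds hepatocytes and several other cell types, and the lists do not separate them.

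CTCF is a zinc finger protein that binds a long, conserved DNA motif and halts the ring-shaped cohesin complex as it extrudes loops of chromatin. Cohesin is loaded at active promoters and enhancers as well, and its ring contains either Stag1 or Stag2 beside Rad21. Top2b, a topoisomerase that relieves strain in DNA, is found at CTCF sites and at active promoters. Promoters of widely expressed genes commonly lie in CpG islands, which are rich in GC and in recognition sequences of factors such as SP, ETS and NRF1 proteins.

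Sequence at the strongest sites shows what the sites without a motif entry look like. The following 8 sites had the highest CTCF scores among those whose 61 bases around the summit touched no annotated exon of any gene, non-coding ones included (1207 of the 3189 sites qualified). Stronger sites such as that at Atxn7l1, whose window reaches into an exon of a lincRNA, are therefore not shown. Bases are those of the NCBIM37 reference (mm9), read 5′ to 3′ on the plus strand, and the site is named by the gene of the nearest start. Capitals would mark a match to AGNNGGCGC, the second part of the CTCF core, on either strand, and none of these 8 windows held one, although Coro1c and Ccdc6 had one further out within 100 bp of the summit.
Atad2b, chr12:4924116-4924176: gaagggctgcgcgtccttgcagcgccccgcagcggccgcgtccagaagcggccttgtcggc
Coro1c, chr5:114358870-114358930: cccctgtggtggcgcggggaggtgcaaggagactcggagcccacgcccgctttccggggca
Ccdc6, chr10:69559737-69559797: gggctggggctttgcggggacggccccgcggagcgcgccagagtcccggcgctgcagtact
Sik2, chr9:50817403-50817463: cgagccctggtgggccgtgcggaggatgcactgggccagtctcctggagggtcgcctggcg
Ndufab1, chr7:129245451-129245511: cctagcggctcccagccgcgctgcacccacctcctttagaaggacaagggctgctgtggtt
Nomo1, chr7:53288972-53289032: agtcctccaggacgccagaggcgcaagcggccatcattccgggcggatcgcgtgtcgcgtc
2010107E04Rik, chr12:113205265-113205325: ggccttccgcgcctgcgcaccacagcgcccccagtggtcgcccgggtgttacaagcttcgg
Mapk14, chr17:28828089-28828149: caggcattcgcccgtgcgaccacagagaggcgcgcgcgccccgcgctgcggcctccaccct

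All 8 summits lay 64 to 255 bp upstream of their start, a position that the limit to windows without exons favours. CTCF scores ran from 13129 at Mapk14 to 18482 at Atad2b, while Rad21 scores ran from 91 at 2010107E04Rik to 10022 at Mapk14. The score is the authors' peak score, which rises as the q-value of the peak falls.

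A second group of sequences shows the promoter elements that the summits lie among. Each is the strongest site clear of exons that held the named element within 30 bp of the summit, and capitals mark the element. They are the GC box GGGCGGG of SP and KLF factors at Slc29a3, the ETS element CCGGAAG at Raph1, the YY1 element AAGATGGC at Hdlbp, the CTCGCGAG element at Chrna7, the E2F element TTTCCCGC at the ribosomal protein gene Rps20, and AGNNGGCGC at Kdm1a, which encodes a histone demethylase.
Slc29a3, chr10:60215632-60215692: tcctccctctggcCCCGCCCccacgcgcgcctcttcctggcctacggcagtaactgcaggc
Raph1, chr1:60623688-60623748: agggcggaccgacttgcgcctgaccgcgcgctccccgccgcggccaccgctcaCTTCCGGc
Hdlbp, chr1:95375080-95375140: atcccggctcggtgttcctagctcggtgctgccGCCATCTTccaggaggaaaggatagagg
Chrna7, chr7:70357487-70357547: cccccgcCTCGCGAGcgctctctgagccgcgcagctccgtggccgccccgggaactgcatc
Rps20, chr4:3762860-3762920: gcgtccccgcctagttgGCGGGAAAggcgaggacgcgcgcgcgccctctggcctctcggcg
Kdm1a, chr4:136158721-136158781: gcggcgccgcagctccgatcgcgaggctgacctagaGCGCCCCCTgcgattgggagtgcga

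Several of the capitals read as the reverse complement of the letters given, since both strands were searched. The Kdm1a window also held ATTGG, the reverse complement of the CCAAT box, right beside the AGNNGGCGC match. The Rps20 window held an AGNNGGCGC match as well, not in capitals, as gcgccctct on the printed strand. These matches describe letters and do not show that the named factor was bound.

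The sites had a median CTCF score of 378 (quartiles 235 and 737, range 129 to 20995) and a median Rad21 score of 225 (quartiles 132 and 362, range 24 to 10022). The lowest CTCF score equals the lowest of all other CAC sites, 129, below which the authors' class holds no site. In fragments at the summit (pileup), the CTCF median was 83, with quartiles of 60 and 125. For Rad21 the median was 57, with quartiles of 41 and 79. Pileups of the factors come from different libraries and antibodies, so a ratio of 1 has no special meaning, but ratios can be compared between sites, and the median was 0.643 (quartiles 0.441 and 0.946).

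Against promoter CAC sites with a motif, the sites without one were weaker in both factors. The 5056 motif sites within the same distance of a start had a median CTCF score of 611 (quartiles 329 and 1405). The Kolmogorov-Smirnov distance D was 0.208, and a site without motif had the higher score in 36.6% of pairs, given here as AUC = 0.366, where 0.5 means no difference (n = 5056 motif sites beside the 3189 throughout, adjusted p = 1.1e-73). The direction was the same on 19 of 19 chromosomes. Rad21 scores differed less, with a median of 267 at the motif sites (AUC = 0.438, D = 0.0964, n = 5056, adjusted p = 7.1e-16, 19 of 19 chromosomes). The ratio of Rad21 to CTCF pileup was higher without the motif, since the motif sites had a median of 0.540 (AUC = 0.587, n = 5056, adjusted p = 7.93e-28, 19 of 19 chromosomes).

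Between promoter sites of equal CTCF score, the differences in Rad21 did not pass the test. With the motif sites weighted to the CTCF scores of the sites without motif in 10 score bins, the AUC was 0.50 for the Rad21 score (n = 5056, adjusted p = 0.113) and 0.502 for the ratio (adjusted p = 0.349). The authors had drawn their domain and loop anchors from motif sites, partly by strength, so the motif set here is what was left after that selection.

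Against the 3004 distal other CAC sites without a motif, the promoter sites had about the same CTCF score and more Rad21. The distal median CTCF score was 359 (AUC = 0.514, D = 0.067, n = 3004, adjusted p = 2.84e-06), and the promoter sites were higher on 11 of 19 chromosomes only. By fold enrichment in place of the score the order turned, with an AUC of 0.447 (n = 3004, adjusted p = 9.25e-13), and it also turned at CTCF scores of at least 200 (AUC = 0.471). By summit pileup the promoter sites were higher, with medians of 83 and 71 (AUC = 0.56, n = 3004, adjusted p = 6.61e-27). The Rad21 score had a distal median of 174, below the 225 at promoters (AUC = 0.571, D = 0.141, n = 3004, adjusted p = 9.63e-27, 19 of 19 chromosomes). At equal CTCF score the AUC was 0.582 (n = 3004, adjusted p = 4.76e-29). The ratio of pileups differed little, at 0.643 against 0.618 (AUC = 0.517, n = 3004, adjusted p = 0.0113), and 13 of 19 chromosomes had that direction. Sites are not replicates, and with so many sites a small shift gives a low p, so the AUC and the number of chromosomes carry the size.

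**Figure D1:**
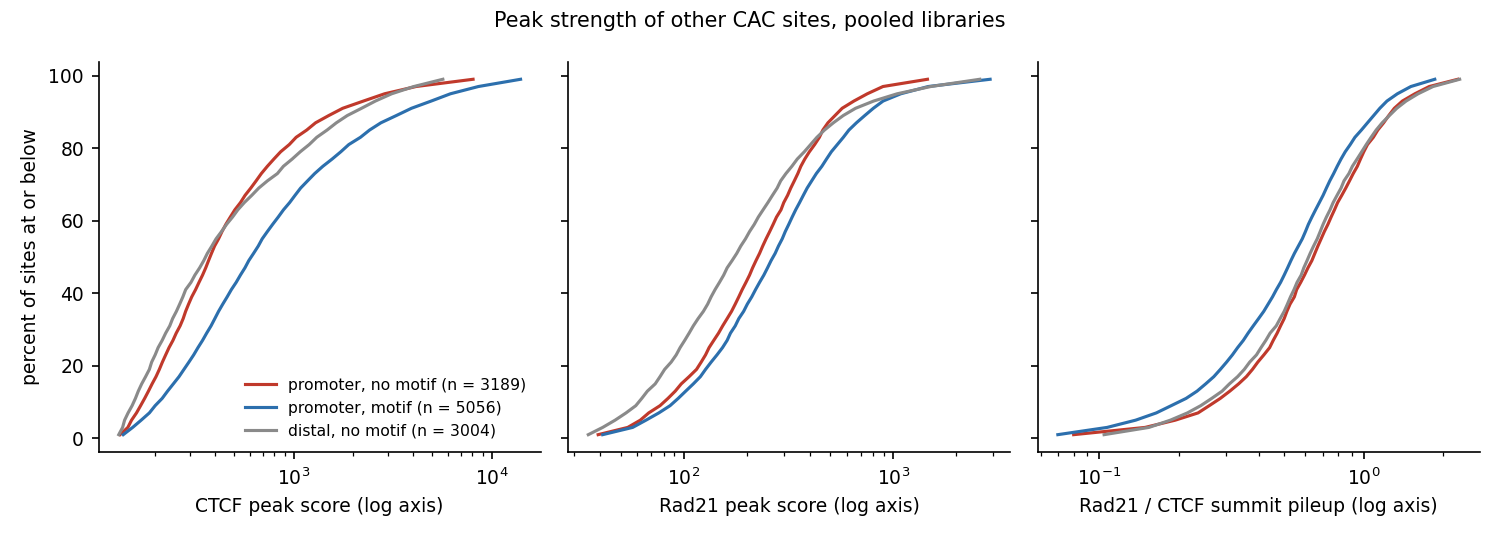
Cumulative share of sites (vertical axis, percent) against CTCF score, Rad21 score and the ratio of Rad21 to CTCF summit pileup (log axes) for 3189 promoter sites without motif, 5056 promoter sites with motif and 3004 distal sites without motif. The promoter sites without motif (red) lie left of the promoter motif sites (blue) in both scores, and their median ratio of 0.643 is the highest of the 3 sets.

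Peaks at promoters without motif were broad. The CTCF peak spanned a median of 615 bp (quartiles 460 and 789), compared with 429 bp at the distal sites without motif (AUC = 0.751, n = 3004, adjusted p = 7.7e-255, 19 of 19 chromosomes). Promoter motif sites were broader still, with a median of 709 bp (AUC = 0.396, n = 5056, adjusted p = 3.87e-41). The authors searched for the motif within the peak, so a wider peak offered more sequence for an entry. The width difference between these sets is therefore partly built into the choice of sites. The summits of CTCF and Rad21 were a median of 60 bp apart, against 40 bp at distal sites without motif (AUC = 0.59, n = 3004, adjusted p = 4.6e-29). At 1432 sites (44.9%) they lay within 50 bp of each other, and at 699 sites (21.9%, 20.5 to 23.4%) they were over 200 bp apart. The corresponding share over 200 bp was 22.8% at promoter motif sites and 9.35% at distal sites without motif. The median distance at promoter motif sites was 54 bp (AUC = 0.51, n = 5056, adjusted p = 0.00683, 12 of 19 chromosomes), and the direction turned at equal CTCF score (AUC = 0.482, adjusted p = 0.00289).

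Some Rad21 peaks covered more than 1 CTCF site. At 145 of the 3189 sites (4.55%) the Rad21 peak also overlapped another site of the class list, and there the summits were a median of 379 bp apart, against 58 bp at the rest. Rad21 was higher there too, with a median score of 327 and a median ratio of 0.983, against 221 and 0.634 at the sites with a Rad21 peak of their own. A site of the class list with a motif lay within 1000 bp of 337 sites (10.6%) and within 5000 bp of 951 sites (29.8%).

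The CTCF summits gathered just downstream of the start. Of the 3189 summits 1034 (32.4%) were within 100 bp of the nearest start and 2389 (74.9%) within 250 bp. Counted with the direction of transcription, the median position was +84 bp, and 2172 summits (68.1%, 66.5 to 69.7%) lay downstream. The 100 bp from +100 to +200 held 784 CTCF summits (24.6%), more than any other such interval. Rad21 summits were more concentrated there, with 1042 (32.7%) in the same interval and a median position of +123 bp. The Rad21 summit lay further downstream than the CTCF summit at 1823 sites (57.2%, 55.4 to 58.9%) and further upstream at 1351 sites (42.4%).

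Promoter motif sites had fewer summits downstream. There 63.8% of the CTCF summits were downstream of the start, 4.30 percentage points fewer (95% interval 2.21 to 6.39, Fisher's exact test, adjusted p = 8.23e-05, 15 of 19 chromosomes). At equal CTCF score that difference was 0.832 points (n = 5056, adjusted p = 0.265). With promoter anchors added to the motif set, as chosen after seeing the data, it was 10.9 points (Fisher's exact test, adjusted p = 3.18e-25). The distance to the start, without regard to direction, had a median of 143 bp without the motif and 157 bp with it. The rule cut this distance at 1000 bp in both sets, so the values are a description, and the AUC moved with the limit, from 0.488 at 500 bp through 0.461 to 0.431 at 2000 bp. The interval from +100 to +200 bp held 26.2% of the Rad21 summits of the motif sites.

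**Figure D2:**
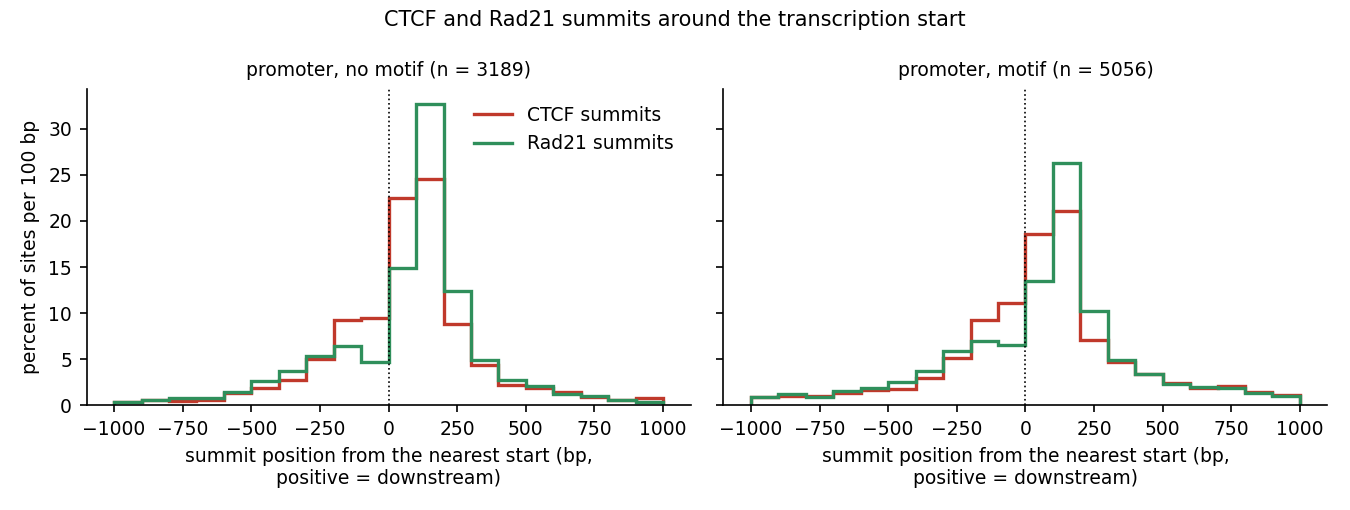
Share of sites (percent per 100 bp) by the position of the CTCF summit (red) and the Rad21 summit (green) from the nearest protein-coding start, in bp with positive values downstream, for promoter sites without motif (left) and with motif (right). Both factors peak at +100 to +200 bp, where the sites without motif have 24.6% of CTCF summits and 32.7% of Rad21 summits.

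By annotation, 997 summits (31.3%) fell in an exon outside coding sequence, 630 (19.8%) in a coding exon, 879 (27.6%) in an intron and 683 (21.4%) outside genes. More than 1 gene had a start within the window at 399 sites (12.5%). Divergent starts, a pair of genes transcribed away from each other, were found at 328 sites (10.3%, 9.28 to 11.4%) compared with 8.07% of promoter motif sites. The difference was 2.22 percentage points (95% interval 0.921 to 3.51, Fisher's exact test, adjusted p = 0.000781, 17 of 19 chromosomes).

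Few sites sat near the 1000 bp limit used to choose them, 35 in the last 100 bp inside it and 33 in the first 100 bp outside. The last sites inside were at 1700003F12Rik, with the summit 998 bp downstream and CTCF and Rad21 scores of 257 and 35, and at Arsa, 993 bp downstream, with scores of 280 and 183. The first outside were near Lbh, 1004 bp upstream, with scores of 244 and 304, and near Rora, 1005 bp downstream, with scores of 320 and 74.

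The authors set flags for overlap with public Stag1, Stag2 and Top2b peaks. Stag1 was flagged at 1808 sites (56.7%, 54.97 to 58.4%), Stag2 at 3052 (95.7%, 94.9 to 96.4%) and Top2b at 2403 (75.4%, 73.8 to 76.8%). Almost every site with Stag1 also had Stag2, and only 10 sites had Stag1 without it, whereas 1254 sites (39.3%) had Stag2 without Stag1. All 3 flags were set at 1556 sites (48.8%) and none at 101 (3.17%). The columns have no header, and their names follow the order given in the study's description of the listing.

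Distal sites without motif had Stag1 more often, at 72.4%, a difference of −15.7 percentage points for the promoter sites (95% interval −18.1 to −13.4, Fisher's exact test, adjusted p = 1.64e-37, 19 of 19 chromosomes). At equal CTCF score the difference was −15.2 points. Promoter motif sites had Stag1 at 64.7%, a difference of −8.02 points (−10.2 to −5.85, n = 5056, adjusted p = 8.14e-13), which was −1.74 points at equal CTCF score (adjusted p = 0.0832). Stag2 differed by −1.65 points from the promoter motif sites, which had it at 97.3% (95% interval −2.48 to −0.814, n = 5056, adjusted p = 8.17e-05), and by −0.91 points at equal score (adjusted p = 0.0832). It differed by 1.20 points from the distal sites, which had it at 94.5% (0.12 to 2.27, n = 3004, adjusted p = 0.0291). With starts within 2000 bp that difference was 0.852 points (Fisher's exact test, adjusted p = 0.124).

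Top2b was the flag that was more frequent at promoters without motif than in both other sets. It was set at 71.99% of promoter motif sites, a difference of 3.36 points (95% interval 1.42 to 5.30, Fisher's exact test, adjusted p = 0.000934, 15 of 19 chromosomes). At equal CTCF score the difference was 6.24 points (n = 5056, adjusted p = 7.68e-09). With promoter anchors added to the motif set, an alternative chosen after seeing the data, it was 0.247 points (Fisher's exact test, adjusted p = 0.803). Distal sites without motif had Top2b at 70.5%, a difference of 4.88 points (2.67 to 7.09, n = 3004, adjusted p = 2.49e-05, 16 of 19 chromosomes).

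Pileups at the sites ran from 42 to 348 fragments for CTCF and from 26 to 138 for Rad21 between the 5th and the 95th percentile. The 3189 sites were put in 5 groups of 637 or 638 by CTCF score. From the weakest group (scores 129 to 213) to the strongest (903 to 20995), the median CTCF pileup went from 49 to 228 fragments and the median Rad21 pileup from 48 to 73. The median ratio therefore went from 0.946 through 0.80, 0.686 and 0.535 to 0.309. Since the groups were formed by CTCF score, the wider range of the CTCF medians and the fall of the ratio are partly built into the grouping. Stag1 was flagged at 43.1% of the weakest and 72.7% of the strongest group, Stag2 at 93.7% and 98.7%, and Top2b at 68.8% and 84.0%. Peak scores of the flagged proteins were not used here, so a dependence of the flags on the depth of the public data was not tested.

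**Figure D3:**
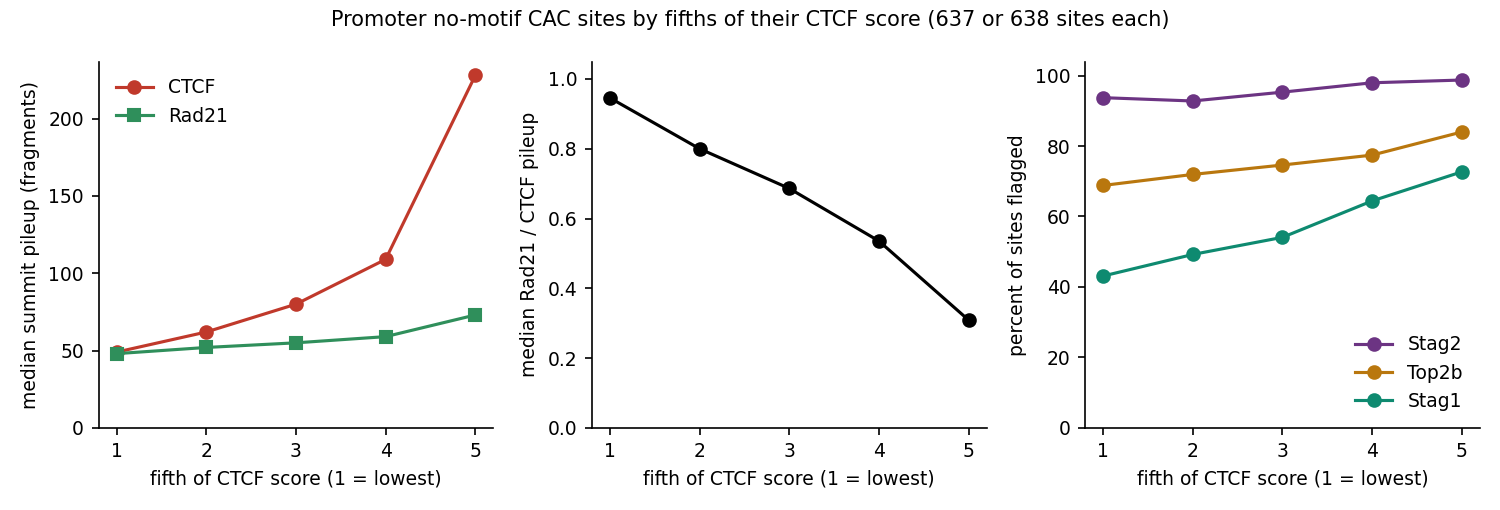
Median summit pileup of CTCF and Rad21 (fragments, left), median ratio of Rad21 to CTCF pileup (middle) and percent of sites flagged for Stag2, Top2b and Stag1 (right) for promoter sites without motif in 5 groups of rising CTCF score. Median CTCF pileup, on whose score the groups were formed, goes from 49 to 228 and median Rad21 pileup from 48 to 73.

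The strongest sites lay upstream of the start more often than the rest. In the strongest of the 5 groups the median CTCF summit was at +51 bp and 60.3% of summits were downstream, whereas the 4 weaker groups had medians between +86 and +93 bp and 69.1 to 71.2% downstream. Of the 100 sites with the highest scores (4071 or more), 61 had the summit upstream of the start and the median position was −64 bp, compared with 30.9% upstream and a median of +88 bp among the other 3089. The median ratio of Rad21 to CTCF pileup in these 100 was 0.115, compared with 0.659 in the others. At the same score limit, 433 promoter motif sites had a median ratio of 0.155, and 65.8% of them were upstream. The 90 distal sites without motif above that score had a median ratio of 0.275, and 1042 distal motif sites had 0.320. In these 100 promoter sites the median CTCF pileup was 674 and the median Rad21 pileup 76 fragments, against 528 and 182.5 at the distal motif sites.

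Of the 10 strongest sites, 9 were near Atxn7l1, Atad2b, Coro1c, Rufy2, Ccdc6, Sik2, Ndufab1, Nomo1 and Specc1. Their CTCF scores ran from 14103 at Specc1 to 19118 at Atxn7l1, and of these 9 only Rufy2 had the summit downstream of the start. Rad21 did not follow CTCF among them. Sik2, a salt-inducible kinase that restrains CREB coactivators, had a CTCF score of 15618 and a Rad21 score of 6069. Ndufab1, the mitochondrial acyl carrier protein of complex I, had nearly the same CTCF score, 15431, with a Rad21 score of 343. At Coro1c, which encodes an actin-binding coronin, the CTCF score was 17389 and the Rad21 score 355, and its Rad21 summit was 386 bp from the CTCF summit, on the other side of the start.

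The lowest ratios of Rad21 to CTCF pileup belonged to sites of this kind. At 2010107E04Rik 1247 CTCF fragments stood against 33 Rad21 fragments, a ratio of 0.0265. At Specc1 the pileups were 1235 and 43, and at Nomo1 1429 and 52. The Rad21 summits of 2010107E04Rik and Nomo1 lay 69 and 244 bp downstream of the start, while their CTCF summits lay 107 and 64 bp upstream. A ratio under 0.1 was seen at 46 sites (1.44%).

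The highest Rad21 score was at Mapk14, the gene of the stress-activated kinase p38 alpha. Its Rad21 score was 10022 with a pileup of 1049, beside a CTCF score of 13129 with a pileup of 1313. Spata20 followed with a Rad21 score of 8334 and a CTCF score of 10627, 883 bp upstream of its start. Sik2 (6069) and Atad2b (4270) came next, so 4 of the 5 leading Rad21 sites had CTCF scores of 10627 or more. The remaining one, at Abca1, the exporter of cellular cholesterol to HDL, was different. It had a Rad21 score of 4037 and a CTCF score of 407, but its Rad21 peak was tallest 1323 bp away from the CTCF peak top, and a motif site lay at a distance of 1300 bp.

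At the other end were the sites with the highest ratios of Rad21 to CTCF pileup. Jak1, a cytokine receptor kinase, had 287 Rad21 fragments and 65 CTCF fragments, a ratio of 4.42. Cat, which encodes the peroxisomal enzyme catalase, had 186 and 50, and Mtfr1, a regulator of mitochondrial fission, had 214 and 59. Summits of the 2 factors were 59, 34 and 8 bp apart there, all downstream of the start by 60 to 211 bp. Each of these 3 sites carried all 3 flags.

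The DNA around the summits had the composition of CpG islands. In the 200 bp around the summit the median GC content was 68% and the median ratio of observed to expected CpG was 0.852. GC above 55% with a CpG ratio above 0.6 was found at 2588 sites (81.2%, 79.8 to 82.5%). That share was 74.7% at promoter motif sites and 11.1% at distal sites without motif. Windows of the same length centred 50 bp upstream of 43969 annotated coding starts had it in 44.0%, with a median GC of 58.5% and a median CpG ratio of 0.59. Compared with the promoter motif sites, the CpG ratio was higher without the motif (0.852 against 0.824, AUC = 0.541, n = 5056, adjusted p = 4.64e-13, 17 of 19 chromosomes). GC was marginally lower (68% against 69%, AUC = 0.484, n = 5056, adjusted p = 7.01e-07, 13 of 19 chromosomes), a direction that turned with starts within 2000 bp (AUC = 0.516).

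The absence of the motif was checked with a second scan. A matrix of 19 positions was learnt from 1930 matches in the strongest domain anchors of odd-numbered autosomes, and its best score in a peak correlated with the authors' motif score at r = 0.944 across 19170 motif sites of the even-numbered autosomes, which share libraries and base composition. At a per-position p of 0.0001, or 7.81 bits, 43 of the 3189 sites (1.35%, 1.003 to 1.81%) held a match. Of promoter motif sites 68.2% did, and of distal sites without motif 2.996%. The median best score was 3.89 bits in the sites without motif and 9.26 bits in the promoter motif sites, so in most of the former the best match lay well under the limit. Motif entries chose the sites, and these shares describe that choice.

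Part of the CTCF core was more frequent at strong sites than at weak ones. AGNNGGCGC, chosen after the values were seen, was found on either strand within 100 bp of the summit at 361 sites (11.3%, 10.3 to 12.5%). It was found at 18.4% of promoter motif sites, at 6.39% of distal sites without motif and in 7.12% of the windows at annotated starts. Motif entries chose the sets, so the difference from promoter motif sites is partly built in. Median GC was 68% at the sites, 51.5% at distal sites without motif and 58.5% in the windows. The shares were not adjusted for GC. From the weakest to the strongest group by CTCF score its share was 7.99%, 9.25%, 8.78%, 11.8% and 18.8% (16.0 to 22.1%). Of the 100 strongest sites 22 held it. At 117 of the 361 sites (32.4%) the match was centred within 25 bp of the summit, and the median distance was 43.5 bp. Only matches within 100 bp were searched for, and a departure from even placement in that window was not tested. The sites with it had a median CTCF score of 517, against 368.5 without it, and a median Rad21 score of 254 against 222.

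Recognition sequences of 13 other kinds are given as shares beside those at annotated starts, without a test of the difference. Of the sites, 783 (24.6%, 23.1 to 26.1%) had the GC box GGGCGGG within 100 bp of the summit on either strand, compared with 28.3% of the windows at starts. The ETS element CCGGAAG was found at 7.71% of sites and in 9.17% of the windows. CGCATGCG, the NRF1 element, was found at 0.941% and in 1.84%, and the YY1 element AAGATGGC at 1.76% and in 2.75%. Promoter motif sites had the GC box at 25.4%, the ETS element at 6.78%, the NRF1 element at 0.910% and the YY1 element at 1.86%. CCAAT was found at 12.4% of the sites, against 26.7% of the windows, and the TATA box TATAAA at 1.85% against 7.32%. The windows of these starts lie upstream, where such boxes are placed, whereas most of the summits lay downstream.

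The E-box CACGTG was found at 4.74% of the sites and in 5.70% of the windows, CRE (TGACGTCA) at 0.815% and 1.83%, and the E2F element TTTCCCGC at 1.07% and 0.973%. CTCGCGAG was found at 0.659% and 0.960%, and the ZNF143 element ACTACAAT at 0.188% and 0.523%. Elements of factors known from liver were TTGCGCAA of C/EBP factors, at 3 sites (0.0941%) and in 0.155% of the windows, and TGTTTAC of FOXA factors, at 41 sites (1.29%) and in 1.93%. Promoter motif sites had the latter at 0.930% and distal sites without motif at 3.33%.

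**Figure D4:**
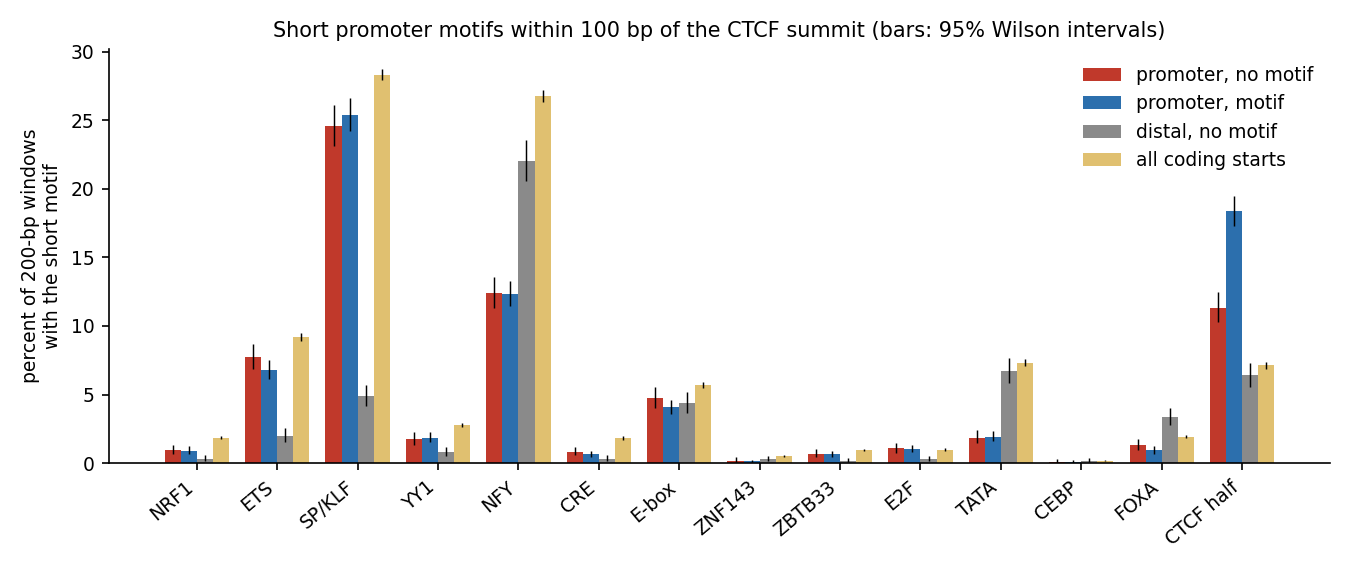
Percent of 200-bp windows that hold each short motif on either strand, around the CTCF summit of promoter sites without motif, promoter sites with motif and distal sites without motif, and upstream of all annotated coding starts (bars, 95% Wilson intervals). The part of the CTCF core is at 11.3% in the promoter sites without motif and 18.4% in those with motif, while CCAAT is at 12.4% in the former and 26.7% at annotated starts. Motif entries chose the sets, so the difference in the part of the CTCF core is partly built in.

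The sites touched the starts of 3400 of 21410 autosomal protein-coding genes, 15.9%, and 185 genes had more than 1 site. A promoter motif site was found at 5233 genes, 24.4% of all. Both kinds were found at 486 genes, which is 14.3% of the genes with a site without motif and 9.29% of those with a motif site, beside 24.4% and 15.9% of all genes. Each peak counts for 1 kind only, and few genes had more than 1 site, so a low overlap is partly built in. Whether the kinds avoid each other was not tested. Gene lists are given below by the share of their genes with a promoter site without motif, beside that 15.9%, with Wilson intervals for counting error only. Expression was not measured in these files, and open promoters were not separated from closed ones.

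In each of 4 lists of protein synthesis genes, more than 15.9% of the genes had such a site. Of 36 aminoacyl-tRNA synthetase genes, whose products charge tRNAs, 19 had a site (52.8%, 37.0 to 68.0%), among them Gars (CTCF score 1786, Rad21 score 403) and Fars2 (893 and 284). Of 55 translation initiation factor genes 24 had one (43.6%, 31.4 to 56.7%), with CTCF scores of 5392 at Eif1ad and 4530 at Eif5b. The start nearest to the summit of the Eif1ad site was that of Banf1. Cytosolic ribosomal protein genes had 30 of 82 (36.6%, 27.0 to 47.4%). Rps14 led these with a CTCF score of 6759 and a Rad21 score of 97, followed by Rpl38 (2672 and 357) and Rps20 (2534 and 174). Mitochondrial ribosomal protein genes had 28 of 76 (36.8%, 26.9 to 48.1%), led by Mrps23 (3267 and 296) and Mrps26 (1955 and 974). Promoter motif sites, found at 24.4% of all genes, were at 30.6% of the synthetase genes, 22 of the 55 initiation factor genes, 22.0% of the cytosolic and 35.5% of the mitochondrial ribosomal protein genes.

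Other lists of widely expressed genes also lay above the share of all genes. Spliceosome protein genes had 19 of 48 (39.6%, 27.0 to 53.7%), and Lsm4, a core protein of the U6 particle, had a CTCF score of 7285 and a Rad21 score of 1772. Autophagy genes had 13 of 27 (48.1%, 30.7 to 66.0%), with CTCF scores of 8673 at Atg16l2 and 6276 at Atg5. Ubiquitin-conjugating enzymes had 13 of 39 (33.3%), vacuolar ATPase subunits 7 of 22 (31.8%), and zinc finger genes named Zfp 98 of 362 (27.1%, 22.8 to 31.9%), led by Zfp2 (8108 and 158). Oxidative phosphorylation genes had 22 of 85 (25.9%, 17.8 to 36.1%), with a CTCF score of 5674 at Uqcrc2, a subunit of complex III. The intervals included 15.9% for the proteasome (10 of 45), chaperones and heat shock proteins (16 of 86), and DNA replication (9 of 41), where Rfc3 had a CTCF score of 8477. Promoter motif sites were likewise found at more than 24.4% of the genes in all 9 of these lists, for example 41.0% of ubiquitin-conjugating enzymes, 37.0% of autophagy genes, 40.7% of chaperones and 34.1% of DNA replication genes.

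Lists of genes with a role in liver had shares on both sides of 15.9%. Secreted liver protein genes had 8 of 83 (9.64%, 4.96 to 17.9%), with CTCF scores of at most 444. Cytochrome P450 genes had 5 of 96 (5.21%, 2.25 to 11.6%), with scores of at most 440, at a Cyp39a1 site nearest to the start of Slc25a27. Promoter motif sites were also at fewer of these genes than the 24.4% of all, at 12.05% and 9.38%, and at more of those in the next 3 lists, with 44% for bile acid and cholesterol synthesis, 38.1% for hepatocyte transcription factors and 11 of 22 clock genes. Orm2, an acute phase protein, had a CTCF score of 285 and a Rad21 score of 132, Rbp4, the retinol carrier of plasma, 238 and 467, and Plg, plasminogen, 220 and 35. Cyp7b1, an oxysterol hydroxylase of bile acid synthesis, had 206 and 124. Genes of bile acid and cholesterol synthesis had 9 of 25 (36.0%, 20.3 to 55.5%), led by Srebf2, the sterol-sensing transcription factor, with a CTCF score of 2563 and a Rad21 score of 180. Acat2 in this list had a ratio of Rad21 to CTCF pileup of 1.34. Hepatocyte transcription factors had 4 of 21 (19.05%, 7.67 to 40%), among them Xbp1 (1896 and 1274), Onecut1 (318 and 67) and Nr5a2 (232 and 53). Circadian clock genes, active in most tissues, had 6 of 22 (27.3%, 13.2 to 48.1%), and their strongest site, at Rora, had a CTCF score of 1357 and a Rad21 score of 139.

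In 3 further lists 2 genes each had a site. Pcx, pyruvate carboxylase of gluconeogenesis, had 486 and 946 as CTCF and Rad21 scores, and Slc25a13, the aspartate-glutamate carrier that feeds the urea cycle, had 129 and 513, with pileup ratios of 1.79 and 3.07 (2 of 13 genes). Among 16 genes of the CTCF and cohesin machinery, Yy1 had a site with 716 and 156 and Top2b one with 289 and 163. Replication-dependent histone genes had 2 of 67 with a site, Hist1h2ac and Hist1h2bc, both at the same peak. The summit of that peak lay 32 bp downstream of the Hist1h2ac start, and the peak carried no flag. Keratin genes had 0 of 97, which allows a share of up to 3.81% by the Wilson interval, and olfactory receptor genes 0 of 1106, up to 0.346%. Promoter motif sites were also rare there, at 1.03% of the keratin genes and 0.181% of the olfactory receptor genes.

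**Figure D5:**
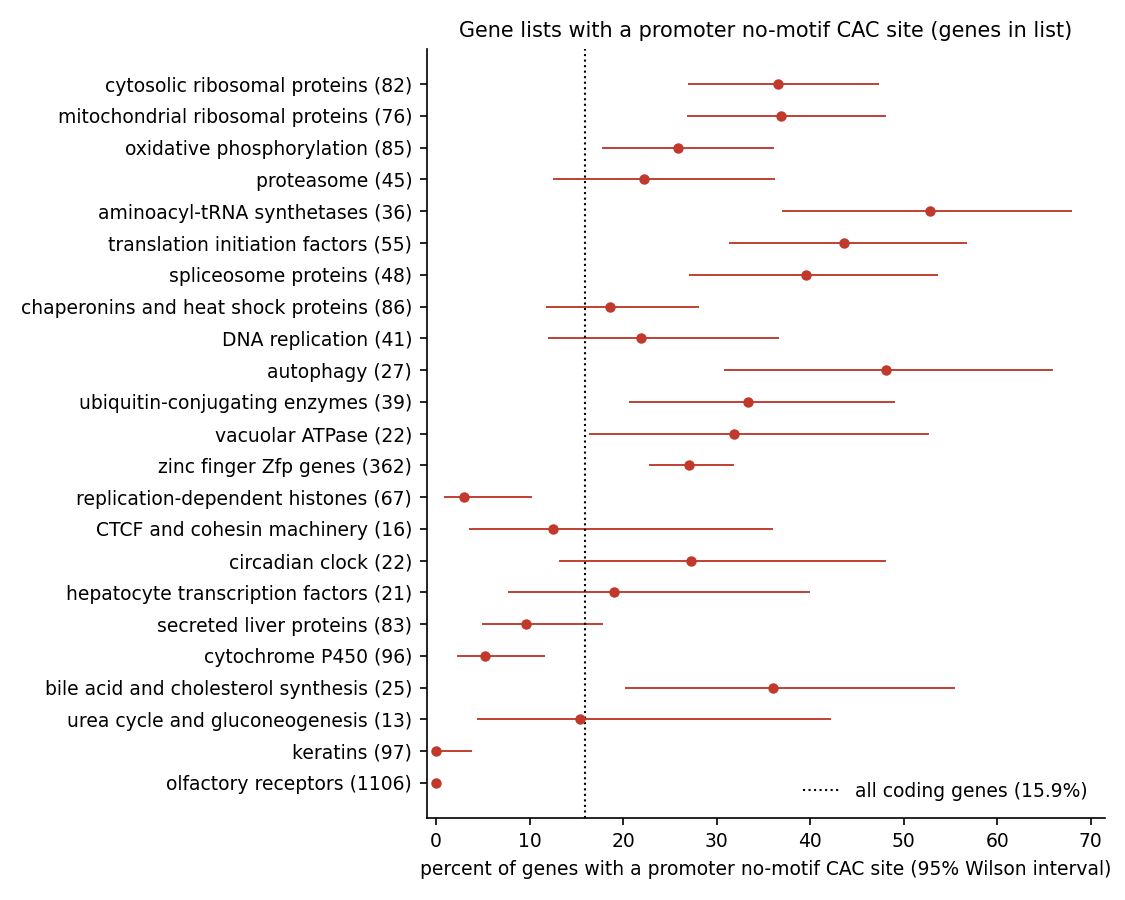
Percent of the genes of each list (number of genes in brackets) that have a promoter CAC site without motif within 1000 bp of a start, with 95% Wilson intervals, beside 15.9% of all autosomal protein-coding genes (dotted line). Aminoacyl-tRNA synthetases have the highest share, 52.8%, and olfactory receptors and keratins have none.

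The sites were spread over all autosomes. Their number ran from 102 on chromosome 14 to 274 on chromosome 11, and per 1000 coding genes from 107 on chromosome 14 to 207 on chromosome 18. They made up 9.90% of other CAC sites on chromosome 6 and 13.9% on chromosome 11. Their median distance to the nearest domain or loop anchor was 29710 bp, and 611 sites (19.2%) had one within 10000 bp. That distance was shorter than at distal sites without motif, with a median of 43168 bp (AUC = 0.426, D = 0.118, n = 3004, adjusted p = 1.24e-18, 19 of 19 chromosomes). It was also shorter than at promoter motif sites, with a median of 34570 bp (AUC = 0.472, n = 5056, adjusted p = 9.22e-06, 17 of 19 chromosomes). At equal CTCF score the AUC was 0.486 (n = 5056, adjusted p = 0.0226). Anchors were drawn from motif sites, so motif sites that were anchors are missing from that set, which can shift its distances. Sites without motif could not be removed in this way.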

How the data were processed

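Only pooled lists were used. As the methods of the study describe, reads of 4 CTCF and of 3 Rad21 libraries were merged by the authors, mapped to mm9 with Bowtie2 and used to call peaks with MACS2. Blacklisted peaks were removed, and CTCF peaks seen in at least 2 livers were classed. In the deposited files the score is 10 times −log10 of the q-value, the fold is the ratio of summit fragments to local background, and −log10 p is the matching p-value. The motif score and the flags are also the authors' values. No library of input DNA was used here, and the lists do not show how many reads each library gave at a site.

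Summit pileups were recovered from the deposited fold and −log10 p, and were whole to within 0.02 at 99.996% of CTCF and 99.997% of Rad21 peaks. Sites overlapped Rad21 by at least 1 bp, and the strongest peak was used. Starts came from GENCODE vM1 (NCBIM37). Sets were compared by two-sided Kolmogorov-Smirnov tests (asymptotic p, conservative with ties) or two-sided Fisher's exact tests, adjusted by Benjamini-Hochberg over 23 results, and at equal CTCF score by weights or a stratified test over 10 bins. Python 3.11.15, SciPy 1.17.1, pandas 2.3.3, statsmodels 0.14.6 and pysam 0.24.0 were used, and the functions were tested on simulated data. Sites named are the 10 highest in CTCF score, the 5 highest in Rad21 score, the 3 at each end of the ratio, the 2 nearest the distance limit on each side and up to 4 genes per list. A few sites that this rule names are not reported here. Windows for printed sequences, and their count, were taken from the autosomes other than chromosome 18, which was left out by choice. Members, lists and motifs were chosen with earlier results of these data known, and AGNNGGCGC after its values were seen.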

Additional observations from a re-analysis of the deposited data

Results flagged for a closer look

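Chromosome X was outside the rule and its sites entered no comparison. It held 48 sites of the same kind (other CAC, no motif, summit within 1000 bp of a coding start) among 655 other CAC sites, or 51.5 per 1000 coding genes. Their median CTCF score was 349 and their median Rad21 score 128. Top2b was flagged at 62.5% of them and Stag1 at 27.1%. On the autosomes the number per 1000 coding genes ran from 107 to 207. No reason for these values was tested.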

How the results depend on the processing

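Of 140 alternatives over the 23 comparisons, 126 kept direction and side of the 0.05 threshold, 9 lost the threshold and 5 turned the direction. The reasons were not tested. At equal CTCF score, promoter sites without and with motif no longer differed past the threshold in Rad21 score (AUC = 0.50), ratio (0.502), Stag1 (−1.74 points), Stag2 (−0.91) or downstream share (0.832 points), and the summit distance turned (AUC = 0.482). At starts within 500 bp the summit distance had an AUC of 0.502. With starts within 2000 bp GC turned (0.516) and Stag2 against distal sites was 0.852 points. With only the 5′-most start of each gene the ratio against distal sites had an AUC of 0.515. CTCF score against distal sites turned at scores of at least 200 (0.471) and by fold (0.447). With promoter anchors added to the motif set, an alternative chosen after seeing the data, GC turned (0.525) and Top2b was 0.247 points. No paired analysis was possible because the lists hold peaks of pooled libraries, and for the same reason no library could be left out. Intervals cover counting error over sites, not variation between mice, and neighbouring sites are not independent. Weak sites near the score limit of 129 depend on depth that the lists do not give.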
